A study of Mus musculus with 6 samples.

Results

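The 40 genes described here code for parts of the spermatid and the sperm, or for proteins that act while these are built, and they were taken as a named list. A promoter was the stretch from 1 kb before to 0.5 kb after the annotated transcript start, on the gene's own strand, and the body was the rest of the gene. Either part was measured where at least 3 cytosine positions had at least 10 reads in all 6 libraries. By this rule 12 of the 40 genes were measured, against 13427 of 31416 genes in all. The 12 genes gave 7 promoters and 9 bodies, and Dnah1, Odf2, Spag6 and Spag16 gave both.

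The assay was reduced representation bisulfite sequencing (RRBS), which cuts genomic DNA with MspI at CCGG, keeps a size fraction and reads out unmethylated cytosines after bisulfite conversion. The 3 DKO lines are androgenetic haploid embryonic stem cells (AG-haESCs) titled as lacking both the H19 DMR and the IG-DMR, at passages 32, 31 and 29 in replicates 1, 2 and 3. The 2 WT lines are AG-haESCs without these deletions, at passages 31 and 18 in replicates 1 and 2. The control was 1 library of round spermatids from testis, the cells into which a spermatocyte divides at the end of meiosis. AG-haESCs come from embryos whose only genome is paternal, and all 6 libraries are of C57BL/6 background. Culture was on feeder cells with 2i, a pair of kinase inhibitors. Titles of a DKO and a WT line share the name OG3 (DKO replicate 2 and WT replicate 1) or AGH-2 (DKO replicate 3 and WT replicate 2). The labels do not say whether a line is 1 clone, whether lines came from separate embryos or how many animals gave the spermatids, so any p-value measures only the spread between these samples.

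Each line had between 197728785 and 255726544 reads over cytosines in total, and the round spermatid library had 293920118. Of 2091599 positions seen in any library, 233019 had the minimum reads in all 6. All 39546 of these that lie inside annotated promoter sequences were cytosines of a CpG, on either strand, so each strand of a CpG counts as its own position. A window 2 to 4 kb beyond the H19 gene held no read in any DKO line, against 22 and 23 reads in the WT lines and none in round spermatids. A window 10 to 16 kb before Meg3, around the IG-DMR, held 0, 0 and 62 reads in DKO replicates 1, 2 and 3, 196 and 0 in WT replicates 1 and 2, and 1 in round spermatids. The labels do not give the limits of the deleted elements, and the control library lacks reads as well, so neither window settles the labels. Among cell type markers, the 6 measured promoters of 10 germline genes had a median level of 13.0% as the mean of the lines, against 0.0161% in round spermatids. The 3 measured promoters of 14 pluripotency genes had medians of 0.0345% as the mean of the lines and 0.0491% in round spermatids. The 1 measured promoter of 8 feeder fibroblast markers had 0.0300% as the mean of the lines and 0.0394% in round spermatids. No promoter of 8 testis somatic markers was measured. Median body levels, as the mean of the lines and in round spermatids, were 0.866% and 0.724% for 3 testis somatic markers. They were 9.17% and 57.7% for 4 feeder fibroblast markers, 0.817% and 0.0121% for 3 germline genes and 0.533% and 7.52% for 8 pluripotency genes. The purity of the spermatid library was not tested.

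After meiosis, a round spermatid replaces most of its histones, first by transition proteins and then by protamines, builds the acrosome from Golgi vesicles and assembles a tail around an axoneme. Many genes for these parts are transcribed only in the male germ line, some of them under the activator CREM, and stay silent in embryonic stem cells. Cytosine methylation at CpG is common in gene bodies and rare in CpG islands. Promoters with few CpGs can carry it, and methylation there often goes with silence.

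Promoter sequences of 4 members, from RefSeq on GRCm38.p6 (the assembly also called mm10), show how far the genes differ in the CpGs that RRBS can read. Each runs from 250 bases before to 50 bases after the start, 5′ to 3′ on the gene's strand, and capitals mark every CpG. Tnp1, for transition protein 1, lies at chr1:73015850-73016149 on the minus strand and has 6 CpGs in this window. Prm1, for protamine 1, lies at chr16:10796774-10797073 on the minus strand and has 1. Spaca1, for an acrosomal membrane protein, lies at chr4:34050018-34050317 on the minus strand and has 16, and Spag16, for an axoneme protein, lies at chr1:69826720-69827019 on the plus strand and has 20.
Tnp1: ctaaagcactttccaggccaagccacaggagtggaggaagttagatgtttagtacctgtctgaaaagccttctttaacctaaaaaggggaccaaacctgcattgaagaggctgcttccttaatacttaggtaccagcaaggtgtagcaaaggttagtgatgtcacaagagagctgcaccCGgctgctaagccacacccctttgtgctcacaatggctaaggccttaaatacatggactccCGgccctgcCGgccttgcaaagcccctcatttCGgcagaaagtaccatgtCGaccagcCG
Prm1: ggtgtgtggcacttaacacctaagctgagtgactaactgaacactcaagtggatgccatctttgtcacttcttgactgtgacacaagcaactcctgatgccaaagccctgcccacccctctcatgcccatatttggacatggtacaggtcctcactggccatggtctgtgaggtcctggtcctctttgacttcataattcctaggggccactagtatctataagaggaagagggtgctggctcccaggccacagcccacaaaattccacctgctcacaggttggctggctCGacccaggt
Spaca1: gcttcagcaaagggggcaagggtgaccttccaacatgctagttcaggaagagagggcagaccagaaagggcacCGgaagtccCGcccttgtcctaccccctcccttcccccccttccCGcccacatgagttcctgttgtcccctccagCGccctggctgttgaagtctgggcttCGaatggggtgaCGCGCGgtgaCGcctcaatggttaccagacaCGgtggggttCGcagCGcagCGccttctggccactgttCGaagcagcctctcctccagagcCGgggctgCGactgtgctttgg
Spag16: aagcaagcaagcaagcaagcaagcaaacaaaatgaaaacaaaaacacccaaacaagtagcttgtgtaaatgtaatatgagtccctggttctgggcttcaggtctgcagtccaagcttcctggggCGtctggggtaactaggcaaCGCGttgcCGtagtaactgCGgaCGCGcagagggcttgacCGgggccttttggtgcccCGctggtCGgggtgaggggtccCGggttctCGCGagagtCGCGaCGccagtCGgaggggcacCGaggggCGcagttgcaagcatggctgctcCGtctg
The Tnp1 CpGs 22, 40 and 48 bases after the start were measured in all 6 libraries, and the last CpG before the start reached 10 reads in 5. The Prm1 window held no measured position. Of the 20 Spag16 CpGs, 9 were measured in all 6 libraries, from 26 bases before to 21 bases after the start.

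Of the 40 members, 33 had an annotated start. Promoters were called CpG-rich where the 300-base sequence had a GC content of at least 50% and a ratio of observed to expected CpG of at least 0.6, and CpG-poor otherwise. By this definition 7 member promoters were CpG-rich and 6 of them were measured, while 26 were CpG-poor and 1 of them, Tnp1, was measured. Over all genes, 68.6% of 9218 CpG-rich promoters and 10.3% of 17806 CpG-poor promoters were measured. The median promoter held 4 CpGs among the members, against 7 over all genes, and the median ratio of observed to expected CpG was 0.225, against 0.389. The MspI site CCGG was present in 15 of 33 member promoters (45.5%), against 52.6% of all promoters of this length. By class, it was in 8 of the 26 CpG-poor members, against 32.2% of all CpG-poor promoters. It was in 7 of the 7 CpG-rich members, against 92.2% of all CpG-rich promoters. The pooled shares therefore also reflect the larger part of CpG-poor promoters among the members (78.8%, against 65.9% of all).

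**Figure D1:**
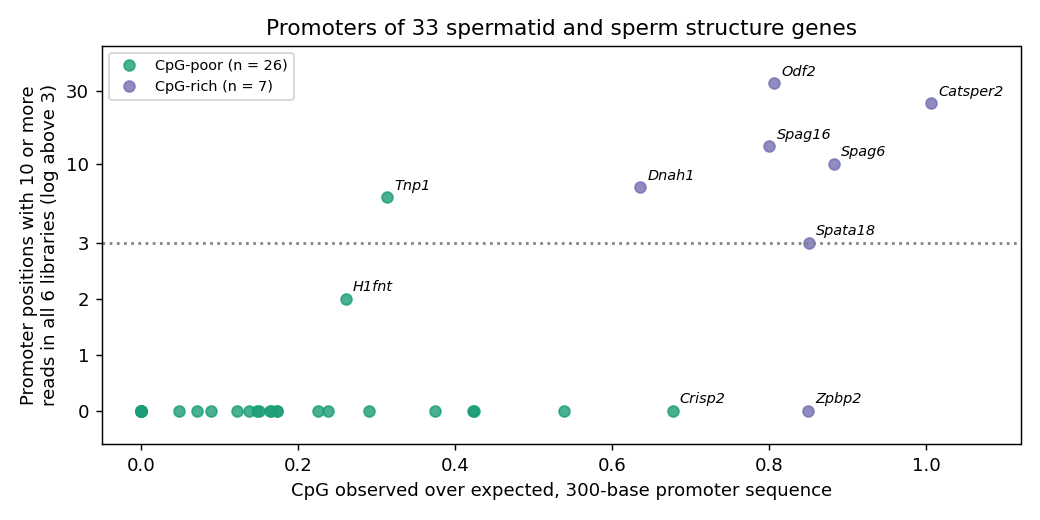
Number of promoter positions with at least 10 reads in all 6 libraries (vertical axis, log scale above 3) against the ratio of observed to expected CpG (horizontal axis) for the 33 members with an annotated start, 26 CpG-poor and 7 CpG-rich. The dotted line marks the minimum of 3 positions, which 6 CpG-rich promoters and Tnp1 reached.

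The full cAMP response element TGACGTCA, which reads the same on both strands, was found in 1 of the 33 member promoters (3.03%), that of Izumo1, the sperm protein that binds the egg receptor. Over all promoters 1.85% held it. The shorter element TGACG, on either strand and including those inside the full element, was found in 9 members (27.3%), against 20.9% of all promoters. It holds a CpG, and its share differs by class. It was in 4 of 7 CpG-rich members, against 36.1% of all CpG-rich promoters, and in 5 of 26 CpG-poor members, against 13.1% of all CpG-poor ones. These are matches of letters in 300 bases and no measure of binding.

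No common position was found for 25 members. Among the chromatin proteins these are Prm1, Prm2, Prm3 (protamines), Tnp2 (transition protein 2) and Hils1 (a spermatid linker histone). Among proteins of the acrosome and the sperm surface they are Acr (the protease acrosin), Acrv1, Izumo1, Zpbp2 and Adam3. Among tail proteins and sperm enzymes they are Odf1, Smcp, Akap3, Akap4, Spem1 and the glycolytic isoenzymes Ldhc, Pgk2 and Gapdhs. The channel subunits Catsper1 and Catsper4, the activator Crem, and Crisp2, Cst13, Oaz3 and Fscn3 complete them. Prm2, Acrv1 and Oaz3 had no position of 10 reads in any library. Catsper3, Spaca1 and Zpbp had only 1 or 2 common positions in a part. Acr, Odf1, Catsper1, Oaz3, Crem, Adam2 and Adam3 have no start in the promoter table, so for them only a body, trimmed by 0.5 kb at both gene ends, was defined.

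The CpG-rich and CpG-poor promoters are given apart. All 6 CpG-rich promoters were at most 7.50% in every library, and Tnp1, the CpG-poor one, was methylated in all 5 lines and not in round spermatids. Among the 9 bodies, Adam2, Dnah1 and Spata25 were lower by at least 25 percentage points in every line than in round spermatids. That is 3 of 9, where 32.9% of 8865 bodies over all genes met the same rule, so the share among the members is near the background. No member body met the rule upwards (0.0226% of all), and no member promoter met it in either direction (1.46% of all promoters downwards and 0% upwards). Round spermatids are 1 library, so these differences carry no test, and all 5 lines are set against that same library.

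**Figure D2:**
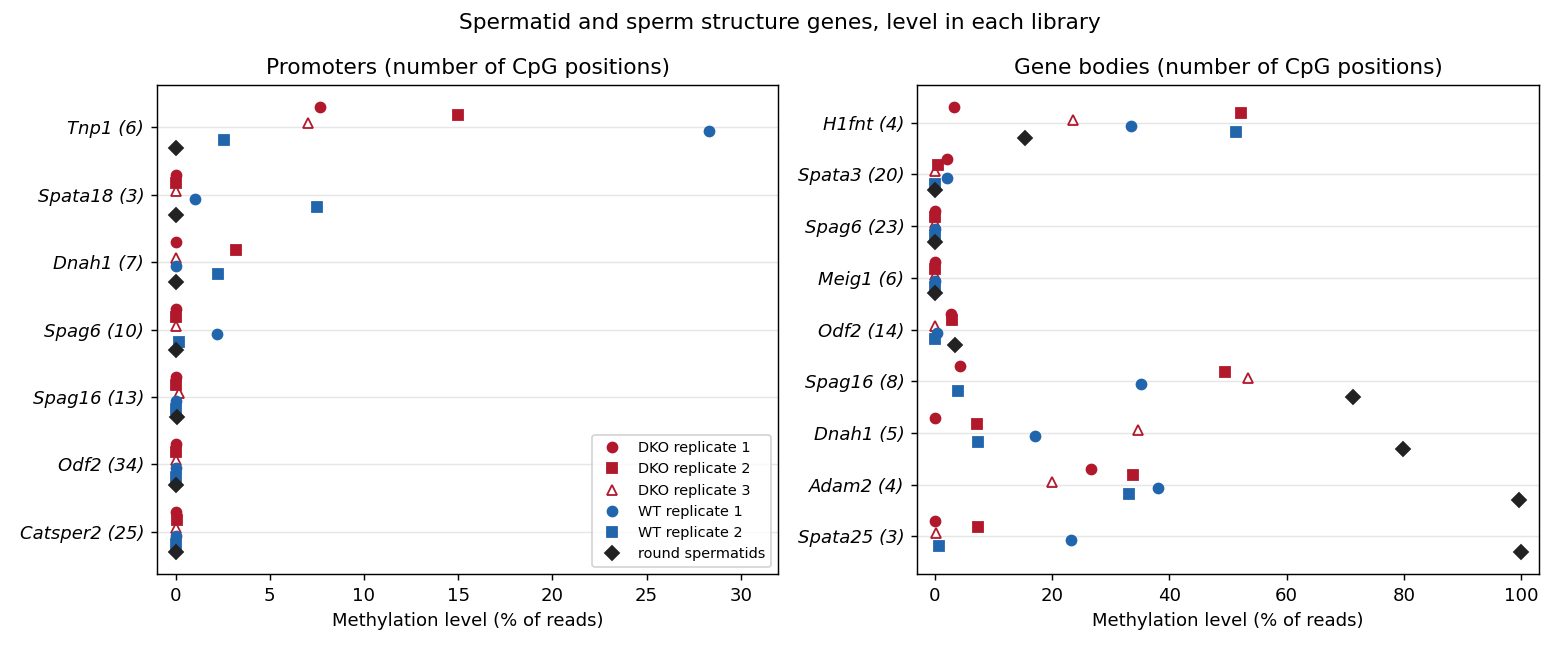
Methylation level (horizontal axis, % of reads) of each measured member promoter (left) and gene body (right) in every library, with DKO lines in red, WT lines in blue and round spermatids in black, and the number of positions in brackets. Tnp1 stands apart among promoters with up to 28.3% in a line. Round spermatids stand right of every line for Adam2, Dnah1, Spag16, Spata25 and, narrowly, Odf2. The horizontal scales of the panels differ.

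Tnp1 codes for the main protein of the histone-to-protamine transition and lies at chr1:73015074-73015899 on the minus strand. Its 6 common positions, 22 to 136 bp after the start, had a level of 7.66%, 15.0% and 7.01% in DKO replicates 1, 2 and 3 and 28.3% and 2.57% in WT replicates 1 and 2, against 0% in round spermatids. In round spermatids 0 of 3423 reads were methylated, which allows a level of up to 0.0876% by counting error. Every line was above the spermatid library, as in 7.32% of all promoters and 7.72% of 1839 CpG-poor promoters. The mean of the lines was 12.1% ± 10.1 (SD, n = 5). Without WT replicate 1 that mean was 8.05 points above round spermatids. WT replicate 1 alone was higher by more than 25 points, as were 0.453% of all promoters and 1.69% of CpG-poor ones in that line. A more positive mean difference than that of Tnp1 was found for 2.34% of CpG-poor promoters. A level below 1% in round spermatids with at least 2% in every line was found for 24 of the 1839. The same 6 positions also lie in the promoter window of 1700027A15Rik, a gene on the other strand, so they cannot be assigned to Tnp1 alone.

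Neighbouring Tnp1 CpGs differed widely within a line. At 48 bp after the start the level was 10.6%, 61.3% and 0.607% in DKO replicates 1, 2 and 3 and 21.5% and 4.84% in WT replicates 1 and 2, against 0% in round spermatids. Nearer to the start, at 40 bp, it was 0%, 0% and 0.202% in the DKO lines and 46.8% and 0% in the WT lines, against 0% in round spermatids. At 22 bp it was 17.4%, 0% and 25.5% in the DKO lines and 0% and 4.84% in the WT lines, again against 0%. The highest of the 6 levels was at 22 bp in DKO replicates 1 and 3, at 48 bp in DKO replicate 2 and at 105 bp in WT replicate 1 (51.9%). The CpG 1 bp before the start, left out above for its 9 reads in WT replicate 2, had 50%, 41.1% and 0% in the DKO lines and 51.3% in WT replicate 1, against 0.549% in round spermatids. Such jumps are common in these libraries among pairs with an intermediate level, which are a small part of all pairs. Each line had 6913 to 10721 of them among 109468 to 117891 pairs, and round spermatids had 3556 among 112574. Over all pairs of positions within 20 bp, with equal read numbers of at least 50 and an intermediate level at 1 of them, 39.7% to 46.9% differed by at least 25 points in the lines, and 46.5% did in round spermatids.

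**Figure D3:**
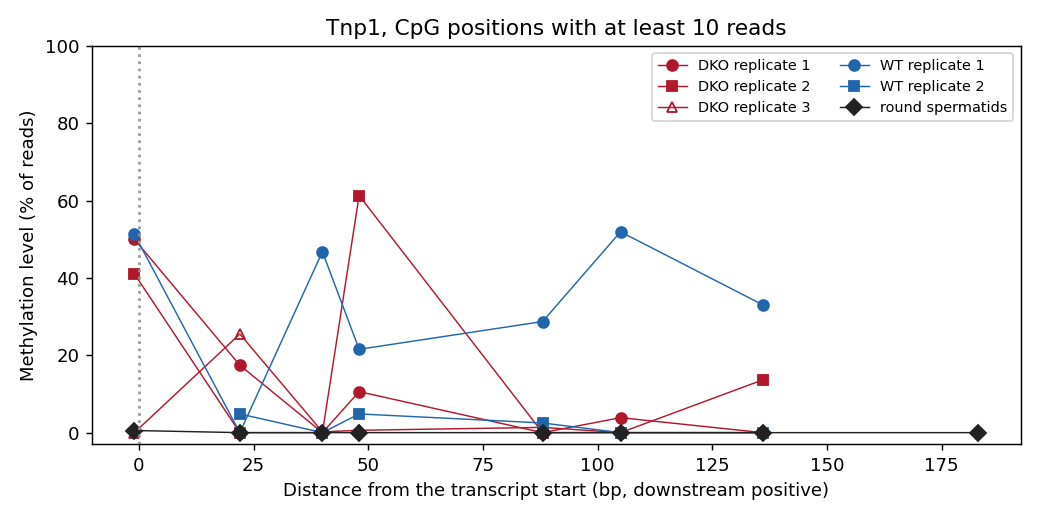
Methylation level (vertical axis, % of reads) of each Tnp1 position with at least 10 reads in a library, against its distance from the transcript start (horizontal axis, bp). DKO lines are red, WT lines blue and round spermatids black. Round spermatids stay at or near 0 throughout, while the lines reach 61.3% at single CpGs.

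The protamine genes sit in 1 cluster on chromosome 16 and were not comparable across the libraries. Prm1 (chr16:10796332-10796823, minus strand) had no read in round spermatids. Its 10 positions, 104 to 183 bp after the start, were at 0% in DKO replicate 1 (0 of 4671 reads) and WT replicate 2 (0 of 7035 reads). The 2 positions read in DKO replicate 2 (568 reads) and WT replicate 1 (88 reads) were at 0% too. In DKO replicate 3 the level was 5.33%, and all its methylated reads were at 1 position, 174 bp after the start, where 84 of 93 reads (90.3%) were methylated. Prm2 had no position to report. Tnp2, the neighbour of the protamine genes and chosen here after its values were seen, had 1 position 169 bp after the start that was read in round spermatids and 4 lines. It was at 0% in DKO replicates 1 and 2, 0% in WT replicate 1 and 82.0% in WT replicate 2, against 100% in round spermatids.

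H1fnt (H1f7 in the gene table), for a linker histone of spermatids, was the member body with the most positive difference. Its 4 positions, 676 to 801 bp after the start (chr15:98255982-98257307, minus strand), had 3.26%, 52.2% and 23.6% in DKO replicates 1, 2 and 3 and 33.5% and 51.5% in WT replicates 1 and 2, against 15.4% in round spermatids (95% Wilson interval 14.1 to 16.8). DKO replicate 1 was below round spermatids and the other lines above. The mean of the lines was 17.4 points above round spermatids, and 0.733% of all bodies had a more positive difference. DKO replicate 2 and WT replicate 2 were higher by at least 25 points, as were 0.925% and 0.361% of all bodies in these lines. At 2 of the 4 positions round spermatids had only 10 reads. The H1fnt promoter, CpG-poor, had 2 common positions. On positions shared by round spermatids and 1 line at a time, it had 21.8%, 38.2% and 0% in DKO replicates 1, 2 and 3 and 44.2% and 0.534% in WT replicates 1 and 2, over 3 to 5 positions. Round spermatids had at most 0.0694% on the same positions.

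Of the acrosome and surface genes, Adam2 was the one measured by the rule. It codes for fertilin beta, a sperm surface protein. Its 4 body positions (gene at chr14:66027322-66077851) had 26.6%, 33.8% and 20.04% in DKO replicates 1, 2 and 3 and 38.2% and 33.2% in WT replicates 1 and 2, against 99.7% in round spermatids (95% Wilson interval 98.2 to 99.9). The smallest difference was -61.5 points, in WT replicate 1, and DKO and WT lines overlapped. The mean difference was -69.3 points, with 13 to 493 reads at a position in a line. The levels were uneven along the gene, as at least 1 of the 4 positions was at 0% in every line, while round spermatids had 97.8% or more at all 4.

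Spaca1 and Zpbp, for proteins of the acrosomal membrane and matrix, had 1 or 2 common positions in the body. At 10 reads a position, they were counted only when 1 position was taken as enough. With that minimum of 1 position, 6 of 13 member bodies were lower by at least 25 points in every line (Adam2, Catsper3, Dnah1, Spaca1, Spata25 and Zpbp), against 38.9% of 12598 bodies. On positions shared with round spermatids, the Spaca1 body had 27.7%, 37.6% and 10% in DKO replicates 1, 2 and 3 and 35.1% and 11.0% in WT replicates 1 and 2, against 83.1% or 84.2% in round spermatids over the same 2 or 3 positions. The Zpbp body, over 1 or 2 such positions, had 6.45%, 0.203% and 0.867% in DKO replicates 1, 2 and 3. It had 1.88% and 0.437% in WT replicates 1 and 2, against 83.5% or 91.1% in round spermatids. The Spaca1 promoter was read at 4 shared positions in the DKO lines only. It had 25.2%, 20.2% and 0% there, against 0% in round spermatids. Over the 10 positions read in DKO replicates 1 and 2, the levels were lower, 8.68% and 4.12%. In DKO replicate 1 nearly all methylated reads lay 6 bp after the start (96.9%), and in DKO replicate 2 they lay 17 bp before it (78.9%). Both CpGs stand in the sequence printed above.

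Among the tail genes, Dnah1, which codes for a dynein heavy chain of the axoneme, was lower in every line. Its 5 body positions (gene at chr14:31260375-31325891, minus strand) had 0.0381%, 7.21% and 34.7% in DKO replicates 1, 2 and 3 and 17.1% and 7.43% in WT replicates 1 and 2, against 79.8% in round spermatids (95% Wilson interval 77.4 to 82.1). The mean difference from round spermatids was -66.5 points, and DKO and WT lines overlapped. Of the 5 positions, 4 are shared with the overlapping gene Gm35823. On the 7 to 17 positions each line shared with round spermatids, the lines had 6.12% to 49.9%, against 76.7% to 88.5% in round spermatids.

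Spag16, for a protein of the central apparatus of the axoneme, was lower in every line by less and less even amounts. Its 8 body positions are spread over a gene of chr1:69826872-70725132 and had 4.37%, 49.4% and 53.3% in DKO replicates 1, 2 and 3 and 35.3% and 3.997% in WT replicates 1 and 2, against 71.2% in round spermatids (95% Wilson interval 69.2 to 73.2). Every line was lower, as for 54.1% of all bodies, but DKO replicates 2 and 3 were lower by less than 25 points. At the 2 positions 497279 and 497295 bp after the start the order was the other way round in the DKO lines, with 62.5%, 92.9% and 100% at the first in DKO replicates 1, 2 and 3, against 0% in round spermatids. Reads there were few in these lines, from 10 to 24 at that position.

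Odf2, for a protein of the outer dense fibres, had a body at 2.76%, 2.91% and 0.0111% in DKO replicates 1, 2 and 3 and 0.327% and 0.0173% in WT replicates 1 and 2, against 3.47% in round spermatids. Of its 14 body positions, 11 lie within 1 kb of another annotated start, and where the body was above 0.3% the methylated reads came almost wholly from the 3 others, 1706 to 1733 bp after the first start. At 1711 bp the level was 47.2%, 34.1% and 0% in DKO replicates 1, 2 and 3 and 0% in both WT lines, against 99.7% in round spermatids. When the promoter windows at all annotated starts were joined, the mean difference of the Odf2 body was -8.88 points, against -2.27 with 1 start. It was -14.9 points when each position counted equally in place of each read. Spag6 (23 body positions), a further protein of the central apparatus, and Meig1 (6 body positions), a manchette protein that binds Spag16, were below 0.06% in every library. All 6 Meig1 positions lie within 1 kb of another annotated start and all 23 of Spag6 within 1 kb of the gene's 5′ end, so these bodies describe start regions. The Spag6 start used here lies 5011 bp inside the gene. Its body positions are therefore at -4832 to -4315 bp from that start, upstream of the promoter window, and that window lies within the gene.

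The CpG-rich promoters of the tail genes were nearly free of methylation. Those of Odf2 (34 positions) and Spag16 (13 positions) were at or below 0.203% in every library. Dnah1 (7 positions) had 0%, 3.18% and 0% in DKO replicates 1, 2 and 3 and 0.0188% and 2.26% in WT replicates 1 and 2, against 0.0136% in round spermatids. Each raised value came from 1 CpG, with 34.4% at 73 bp before the start in DKO replicate 2 and 15.3% at 33 bp before it in WT replicate 2. Spag6 (10 positions) had 0%, 0.0452% and 0% in DKO replicates 1, 2 and 3 and 2.19% and 0.183% in WT replicates 1 and 2, against 0.0408% in round spermatids. Of all 6326 CpG-rich promoters, 87.7% were below 1% in every library. Of the 6 among the members, 3 were, namely Catsper2, Odf2 and Spag16.

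Catsper2 and Catsper3 code for subunits of the sperm calcium channel. The Catsper2 promoter (25 positions) was at or below 0.0689% in every library, and all 25 positions also lie in the promoter window of Pdia3, which faces the other way. Catsper3 had 2 common body positions and entered only with the lower minimum. Over both, the level was 0%, 0% and 0% in DKO replicates 1, 2 and 3 and 12.1% and 0% in WT replicates 1 and 2, against 99.6% in round spermatids. All lines were far below round spermatids at these 2 positions. The Catsper2 body had 1 common position and did not meet the size rule in every line. Over 1 or 2 positions shared with round spermatids it had 8.41%, 17.9% and 0% in DKO replicates 1, 2 and 3. It had 0% in both WT lines, against 31.2% or 18.8% in round spermatids.

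Of the 9 member bodies with at least 3 common positions, Spata25 gave the widest difference. Its 3 positions, 946 to 983 bp after the start (chr2:164827382-164828534, minus strand), had 0%, 7.46% and 0.282% in DKO replicates 1, 2 and 3 and 23.3% and 0.714% in WT replicates 1 and 2, against 100% in round spermatids (171 of 171 reads, 95% Wilson interval 97.8 to 100). The mean difference was -93.7 points, and 1.34% of all bodies had a more negative difference. All positions were methylated in round spermatids, while in WT replicate 1 only the middle one was (48.9%). Spata3 (20 body positions, all within 1 kb of the 5′ end of the gene) had 2.17%, 0.530% and 0.0162% in DKO replicates 1, 2 and 3 and 2.14% and 0.0276% in WT replicates 1 and 2, against 0.0335% in round spermatids. The Spata3 start used here lies 3914 bp inside the gene, so these positions are upstream of its promoter window. The Spata18 promoter (3 positions, CpG-rich), of a gene for a protein of mitochondrial quality control, had 0% in all 3 DKO lines and 1.03% and 7.50% in WT replicates 1 and 2, against 0.0213% in round spermatids. These 3 positions also lie in the promoter window of Gm34902.

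**Figure D4:**
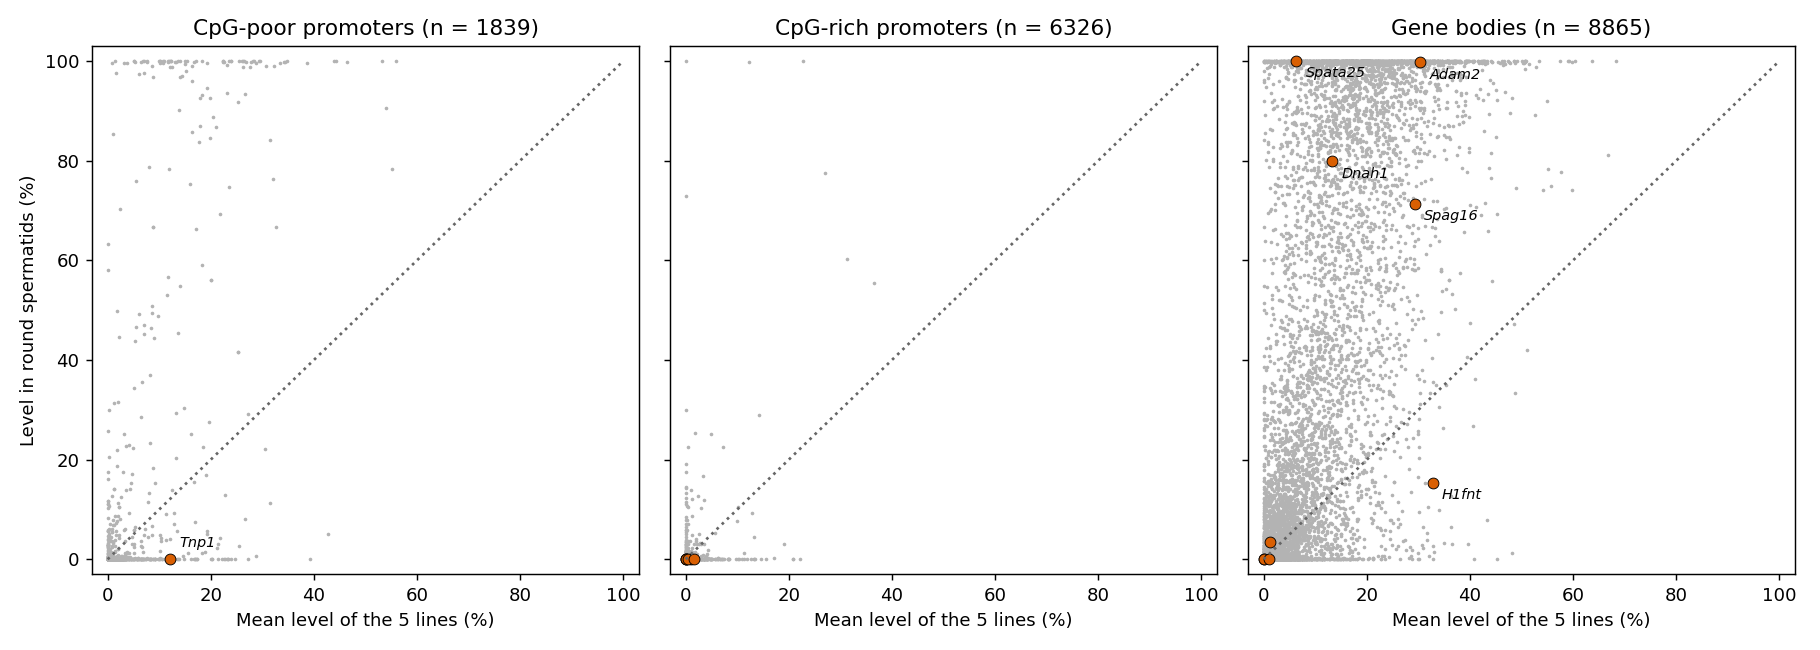
Level in round spermatids (vertical axis, %) against the mean level of the 5 lines (horizontal axis, %) for 1839 CpG-poor promoters, 6326 CpG-rich promoters and 8865 gene bodies in grey, with members in orange. Tnp1 lies on the lower edge at 12.1% against 0%, CpG-rich members lie near the origin, and Spata25, Adam2, Dnah1 and Spag16 lie above the line of equal levels with the bulk of methylated bodies.

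Line by line, the bodies lower by at least 25 points were 4, 3 and 3 of 9 in DKO replicates 1, 2 and 3, where 38.7%, 37% and 39% of all bodies were. They were 4 and 4 in WT replicates 1 and 2, where 36.1% and 39.9% were. Spag16 was the member that passed in some lines and not in others. The median mean difference over the 9 member bodies was -2.27 points, against -5.59 over all bodies. For the 7 member promoters it was 0.443 points, against 0.00736 over all promoters. Among CpG-rich promoters it was 0.228 points for the 6 members, against 0.00643 for all. Tnp1, the only CpG-poor member measured, had 12.1 points, against a median of 0.0129 over all CpG-poor promoters. The value of 0.443 is that of the Spag6 promoter, which fell to 0.0164 points without WT replicate 1.

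DKO and WT lines were compared by edgeR's quasi-likelihood test on methylated and unmethylated counts, over all promoters and over all bodies. No promoter of 7762 and no body of 8707 passed at an adjusted p (Benjamini-Hochberg) of 0.05, members included. At an unadjusted p below 0.05 there were 202 promoters (2.6%) and 182 bodies (2.09%), and limma on logit levels gave 0 and 0 at the adjusted threshold and 332 and 265 at the unadjusted one. Of the 7 member promoters, 2 were below that unadjusted threshold, Spag6 and Spata18. On the common positions every DKO line was below every WT line in both, as in 4.25% of all promoters. Spag6 averaged 0.0151% in DKO lines and 1.19% in WT lines, a difference of -1.17 points with an adjusted p of 0.969 by edgeR. Without WT replicate 1 it was -0.168 points. All methylated reads of the WT lines at the 10 common Spag6 positions lay at 1 CpG, the same in both lines. That CpG had 26.8% in WT replicate 1 and 1.89% in WT replicate 2, and the other 9 positions had 0% in these lines. On each line's own positions with at least 10 reads, which differ between lines, the Spag6 groups overlapped. DKO replicates 1, 2 and 3 had 0%, 2.05% and 0.0145% there, against 2.11% and 0.165% in WT replicates 1 and 2. Spata18 averaged 0% in DKO lines and 4.26% in WT lines, a difference of -4.26 points with an adjusted p of 0.969 by edgeR. That difference was -1.03 points without WT replicate 2 and -7.50 without WT replicate 1. All 188 methylated reads of WT replicate 2 were at 1 of the 3 Spata18 positions, 155 bp after the start (15.0%). In WT replicate 1 that CpG had 0.948%, and the CpG 179 bp after the start had 1.79%. Tnp1 averaged 9.88% in DKO lines and 15.4% in WT lines, with overlapping lines and an adjusted p of 0.999 by edgeR. No member body separated the groups, where 8.74% of all bodies were higher and 6.57% lower in every DKO line than in every WT line. With 3 against 2 lines an exact permutation test cannot give a p below 0.1.

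A list of 66 other genes for sperm and spermatid proteins, chosen with earlier results of these data known, gave 14 measured promoters and 21 measured bodies. Its promoters had a median of 0.0436% as the mean of the lines, against 0.0528% in round spermatids, and none differed by 25 points in every line. Of its bodies, 9 were lower by at least 25 points in every line (32.9% of all bodies were) and none was higher. The widest differences were those of Pfn4, a profilin of testis (4.42% as the mean of the lines, against 99.7% in round spermatids), and Hk1, a hexokinase with a sperm form (8.15% against 98.2%). Slc26a8, an anion transporter of the sperm (8.29% against 91.7%), and Spata16, a protein of the forming acrosome (21.5% against 87.4%), followed.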

How the data were processed

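RRBS libraries of 3 DKO and 2 WT AG-haESC lines and 1 of round spermatids were analysed. Per the labels' protocols, MspI fragments were ligated to methylated adapters, selected by size, treated with bisulfite and amplified. Per the submitters' processing notes, Bismark 0.12.2 and mm10 were used; for trimming and removal of duplicates they name nothing. The deposited files list, per position, methylated and unmethylated read counts and a level as a fraction, which the authors derived from these counts (checked within 1e-09).

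Counts were summed over positions with at least 10 reads in all 6 libraries, with at least 3 positions a part. Starts came from the RefSeq promoter table (the most upstream one listed), so exons, introns and UTRs were not assigned. Some of these starts lie inside the gene, by 5011 bp for Spag6, 3914 bp for Spata3 and 1995 bp for Dnah1. Body positions can then lie upstream of the promoter window. Reads were amplified without molecular identifiers and span several positions, so Wilson 95% intervals and limits from 0 counts (3 reads of the total) cover counting error only and are too narrow. Levels are averages over the cells of a library. A difference of 25 percentage points in every line was the size rule against round spermatids, which have no replicate and so no test. DKO and WT lines were compared with edgeR 4.0.16 in R 4.3.3, two-sided, with library terms and a term for group and methylation together. The negative binomial dispersion was 1 value for all parts, and the quasi-likelihood step added a spread estimate for each part. P-values were adjusted over all promoters or all bodies, and limma 3.58.1 was an alternative. Scripts were tested on simulated data. Replicate numbers of WT lines follow accession order and pair nothing. Members and lists were chosen with earlier results of these data known. All measured members are named with values, members with fewer positions only under the alternatives that admit them, and Tnp1, Prm1 and Prm2 in any case. Not every part admitted by an alternative is given with values. The Spaca1 promoter and Tnp2 are given too, though no alternative admits them. Alternatives varied read and position minima, weighting, window, starts, shared positions, size rule, CpG class, test, line-name block and left-out lines.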

Additional observations from a re-analysis of the deposited data

How the results depend on the processing

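The 201 alternative values of the 16 member differences from round spermatids kept their sign in 192, and 192 stayed within 1 SD of the lines. Some alternatives repeat the main value by construction, as a position minimum only decides whether a part is measured. Both counts therefore overstate how stable the differences are. None of the values that changed sign belonged to Adam2, Dnah1, H1fnt, Spag16 or Spata25 bodies or to the Tnp1 promoter. Tnp1 ranged from 8.05 to 16.3 points, Spata25 from -97.9 to -90.2, Adam2 from -75.7 to -66.7, the Dnah1 body from -73.4 to -56.6, the Spag16 body from -48.0 to -35.4 and the H1fnt body from 12.6 to 26.2. Member bodies lower in every line numbered 3, and 3 with any line left out, but 6 with at least 1 position (13 bodies measured) and 1 with at least 5 positions, since Adam2 and Spata25 then had too few. They numbered 4 with at least 5 reads (Zpbp added), 2 with at least 20 reads (Adam2 no longer measured), 4 with a size rule of 10 points (Spag16 added) and 2 with 50 points. With the stricter class (GC of at least 55% and a ratio of at least 0.75), 2 measured member promoters were CpG-poor in place of 1. Called DKO against WT promoters numbered 0, but 3 with the window from 0.5 kb before to 0.2 kb after the start and 0 to 1 with 1 line left out (1 without DKO replicate 1); the cause was not tested. Called bodies numbered 0 under every alternative. A replicate block on the line names OG3 and AGH-2 gave 17 promoters (11 higher and 6 lower in DKO) and 0 bodies, with no member among them. DKO replicate 1 shares its name with no other line and stood alone in its block. That contrast therefore rested on the 2 same-named pairs of lines. Deviations of same-named lines from their group means correlated at 0.0525 and -0.0917 over promoters and 0.142 and 0.0562 over bodies. With 2 WT lines the deviations of 1 mirror those of the other, so each correlation returns with opposite sign for the different-named WT line. These values therefore cannot decide whether the names pair the samples, and pairing is not shown. Joining all annotated starts was added after the data were seen. With at least 5 reads in place of 10, 7 member promoters were still measured and the measured bodies numbered 10 in place of 9.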
